A study of Rattus norvegicus with 32 samples.

Results

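The insulin-like growth factor (IGF) axis and the insulin receptor substrates were followed in the left ventricle of rats through 10 genes: the ligands Igf1 and Igf2, the receptors Igf1r and Insr, the binding proteins Igfbp3, Igfbp4, Igfbp5 and Igfbp6, and the receptor substrates Irs1 and Irs2. Probes were taken by gene name alone, and 19 probes of the array carried one of these names in at least one annotation of the scanner files, out of 45598 probes and 27963 named genes in all. The hearts came from young adult Wistar rats of both sexes, collected 20 h after surgery. Rats had a sham operation (sham group, 5 males and 5 females), cecal ligation and puncture, which releases gut bacteria into the abdomen and causes sepsis (CLP group, 5 males and 5 females), or the same procedure followed by a continuous infusion of landiolol, a short-acting blocker of the beta1-adrenergic receptor (CLP plus landiolol group, 6 males and 6 females). Groups without landiolol received saline. No antibiotics were in the infusion, all rats had buprenorphine for pain, and the hearts had been imaged in vivo and perfused ex vivo before freezing, in every group alike. One array was hybridised per heart, so n counts rats.

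Insulin-like growth factors are small hormones related to insulin. IGF-1, made mostly in the liver under growth hormone but also within the heart, binds the IGF-1 receptor, while insulin binds the insulin receptor, and both receptors phosphorylate IRS-1 and IRS-2, the docking proteins that recruit phosphoinositide-3-kinase (PI3K) and so activate AKT. In the heart this route favours glucose uptake, protein synthesis and cell survival. Most IGF in tissue is held by the IGF binding proteins, which prolong its life, carry it and limit its access to the receptor.

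All values are log2 processed signals after quantile normalisation within each sex, so a difference of 1 is a doubling and levels of different probes are not comparable. All 19 member probes passed the detection filter in both sexes and none was saturated. Correlations between arrays of a sex ran from 0.930 to 0.989. Each sex was hybridised on slides of its own, so levels of males and females were not compared. In females all 5 sham arrays lay in the first row of the slides and all 6 CLP plus landiolol arrays in the second, so for that pair row and group cannot be told apart except through the CLP arrays, which lay in both rows. For the cardiomyocyte markers (Myh6, Tnnt2, Tnni3, Actn2, Ryr2) the mean over the list lay between 15.98 and 16.65 on every array, and none of them passed the test in any comparison. None of 4 adipocyte markers passed the detection filter in either sex. Adipoq and Plin1 were not well above background on any array. Cidec was so on at least 1 array of male CLP and of each female group, and Lep on at least 1 array of female CLP plus landiolol.

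The findings below rest on a few probes, whose sequences are given here so that what was measured is plain. All coordinates are those of the scanner files, rat build rn4, and exon or UTR annotation of that build was not used here. The probe representing Igf1 lies on chromosome 7, plus strand (chr7:24587916-24587975), and was printed as 10 spots per array. Igfbp6, called in both sexes after CLP, was measured by a single probe on the same chromosome and strand (chr7:140888422-140888481). The second probes of Igf1r (chromosome 1, plus strand, chr1:122989150-122989209) and Insr (chromosome 12, plus strand, chr12:3086616-3086675) are shown because they gave a call that the brighter probe of the gene did not. Of a further Igf1 probe (chr7:24605477-24605536, plus strand), which departed from the other 4, only the last 25 bases are given, with the alternating CT run in capitals.
Igf1: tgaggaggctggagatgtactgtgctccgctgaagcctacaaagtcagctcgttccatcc
Igfbp6: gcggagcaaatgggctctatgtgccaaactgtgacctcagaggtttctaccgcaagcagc
Igf1r second probe: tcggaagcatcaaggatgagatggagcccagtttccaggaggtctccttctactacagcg
Insr second probe: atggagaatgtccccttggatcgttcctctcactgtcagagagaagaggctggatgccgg
Igf1 departing probe, end: agttTCTCTCTCTCTCTCTCTCTtt

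In the CLP group compared with sham, Igfbp6 was lower in both sexes. Igf1r was higher in males, and Igf1 and Igfbp3 were lower in females. In the CLP plus landiolol group compared with the CLP group, Irs1 was higher in males, and no member passed the test in females. Each gene was represented by its brightest probe, and a gene was called at a limma false discovery rate of 1% against sham and 5% against CLP. In males 2 of 10 members were called in CLP vs sham, 1 higher and 1 lower, where 8.89% of the 16471 genes tested were called (4.18% higher, 4.71% lower). Between the male CLP plus landiolol and CLP groups it was 1 of 10, higher, against 1.77% of all genes (1.03% higher, 0.747% lower). For CLP plus landiolol vs sham in males it was 3 of 10, 2 higher and 1 lower, against 4.83% (2.75% higher, 2.08% lower).

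In females 3 of 10 members were called in CLP vs sham, all lower, where 4.21% of the 16210 genes tested were called (2.14% higher, 2.07% lower). None was called in CLP plus landiolol vs CLP by limma, against 0.0987% of all genes (0.0617% higher, 0.037% lower), and 2 of 10 members had an unadjusted p under 0.05, against 9.88% of all genes. One of 10, lower, was called in CLP plus landiolol vs sham, against 6% (3.41% higher, 2.59% lower). The median absolute log2 difference of the 10 members in CLP vs sham was 0.41 in males, beside 0.25 over all genes, and 0.62 in females, beside 0.26. The members did not move one way: in CLP vs sham 5 differences were positive and 5 negative in each sex. The 3 comparisons within a sex share their arrays, the CLP arrays entering both CLP vs sham and CLP plus landiolol vs CLP, so a low or high CLP array acts on both with opposite sign.

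**Figure D1:**
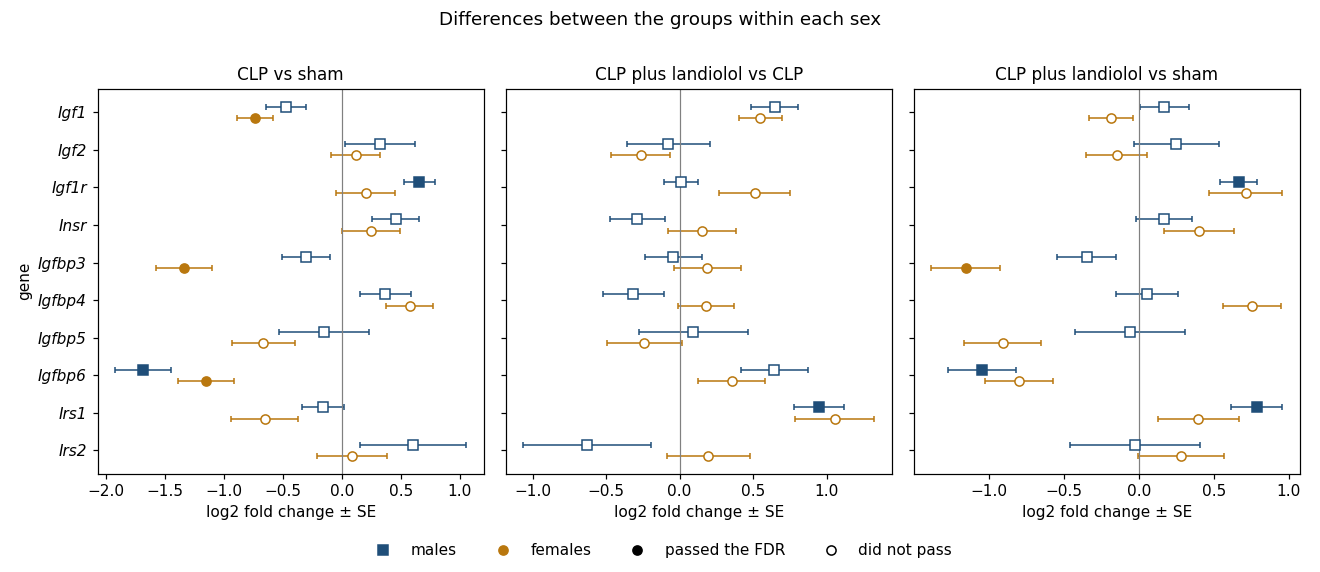
Log2 difference of each of the 10 genes (representing probe, rows) in the 3 comparisons, for males and females, with bars giving 1 SE and filled symbols the differences called by limma (squares males, circles females). The Igfbp6 differences from sham lie below 0 in both sexes, at -1.69 in males and -1.15 in females for CLP, whereas the Irs1 differences between CLP plus landiolol and CLP lie above 0 at 0.95 and 1.05.

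Among the ligands, Igf1 was lower after CLP. In females the 5 sham arrays read 11.01, 11.18, 10.97, 11.16 and 11.33 and the 5 CLP arrays 10.89, 10.16, 10.25, 10.32 and 10.34. Every female CLP array lay below every sham array, with the first CLP array closest to sham. The difference was -0.74 (SE 0.15, adjusted p = 0.00643), a 1.66-fold lower level, and it was -0.86 on the first slide and -0.68 on the second. With a term for slide row it was -0.70 (adjusted p = 0.0392), which did not pass the 1% threshold. In whole ventricle, fewer cells of a type that makes a transcript and less of it per cell cannot be told apart.

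In males Igf1 read 11.91, 11.59, 12.25, 11.85 and 11.41 in sham and 11.45, 11.65, 11.24, 11.09 and 11.19 in CLP. These groups overlapped, and the difference of -0.48 (SE 0.17, adjusted p = 0.0677) was not called. In the male CLP plus landiolol group Igf1 ranged from 11.73 to 12.29 with a median of 11.91, so that all 6 arrays were above all 5 CLP arrays. That difference was 0.65 (SE 0.16, adjusted p = 0.0585), just outside the 5% threshold, and 0.72 and 0.63 on the 2 slides. In the female CLP plus landiolol group Igf1 ranged from 10.62 to 11.17 with a median of 10.97, overlapping the first CLP array only. The female difference from CLP was 0.55 (SE 0.15, adjusted p = 0.179). Against sham, Igf1 in the CLP plus landiolol group differed by 0.17 in males (95% confidence interval -0.17 to 0.51) and by -0.19 in females (-0.49 to 0.12), intervals that do not exclude a difference of either sign.

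Igf1 was carried by 5 probes, and 3 of the other 4 shared the sign of the representing one in CLP vs sham and against CLP. In CLP vs sham they differed by -0.57, -0.55 and -0.61 in males and by -0.79, -0.66 and -0.96 in females, with adjusted p from 0.0535 to 0.0716 and from 0.0113 to 0.0257, so that none was called. In CLP plus landiolol vs CLP they differed by 0.85, 0.81 and 0.82 in males, where the first and second were called (adjusted p = 0.0306 and 0.0425) and the third was not (adjusted p = 0.0536). The female differences of the same probes were 0.57, 0.68 and 0.74, with adjusted p from 0.115 to 0.353. The departing Igf1 probe differed by 0.08 and 0.15 in CLP vs sham in males and females, and by -0.14 and -0.46 between CLP plus landiolol and CLP. In male CLP plus landiolol vs sham it gave -0.06 (SE 0.14), where the representing probe gave 0.17. In the female comparison of the same groups another probe (A_44_P1044658) gave 0.02 (SE 0.15) where the representing one gave -0.19, and none of these was called. The departing probe is the one whose end is printed above, with an uninterrupted alternation of C and T over 19 bases. A run at least that long occurred in 7 of the 45598 probes (0.0154%), the departing probe included. Whether that run bears on the values of the departing probe was not tested.

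**Figure D2:**
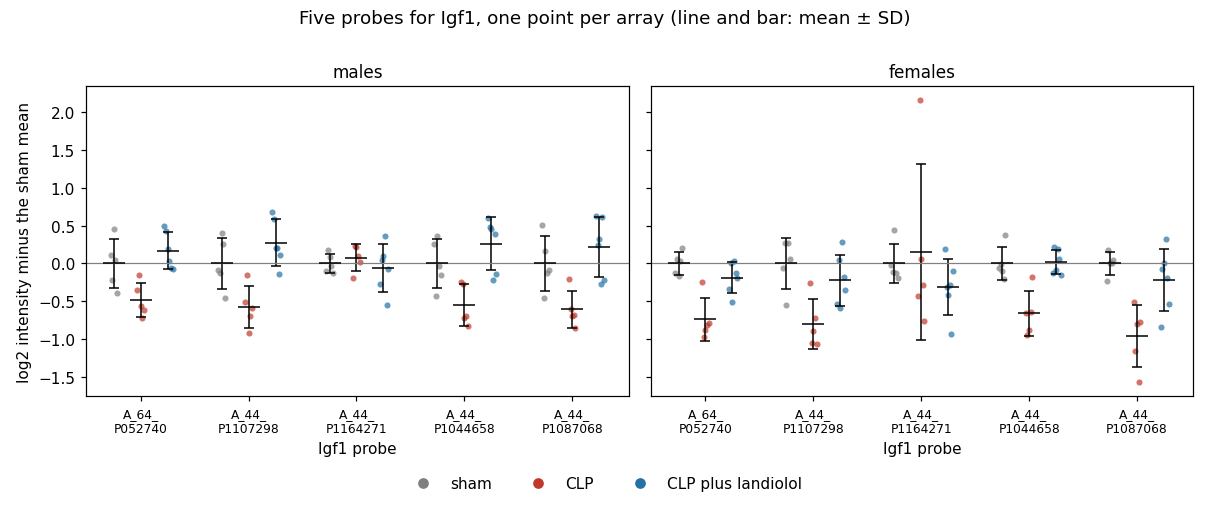
Log2 signal of the 5 Igf1 probes on each array, minus the mean of the sham arrays for that probe and sex, with a line and bar for the group mean and 1 SD. The representing probe is the first from the left and the departing probe the third, and the group means of the other 4 sit lower in CLP than in sham and in CLP plus landiolol, for the representing probe by 0.48 and 0.65 in males.

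Igf2, the growth factor best known from fetal tissue, did not pass the test in any comparison. Its mean level was 12.07 ± 0.43 (SD, n = 5) in male sham, 12.40 ± 0.73 (SD, n = 5) in male CLP and 12.32 ± 0.28 (SD, n = 6) in male CLP plus landiolol. In females the corresponding means were 12.21, 12.33 and 12.07. The largest of the Igf2 differences for the representing probe, 0.33 between male CLP and male sham, had a 95% confidence interval of -0.30 to 0.95. With 1 array left out at a time that difference ran from 0.20 to 0.64 and was never called (lowest limma adjusted p = 0.0548). The dimmest of the 3 Igf2 probes, which carries the name of another locus in the male files, differed with the opposite sign in CLP vs sham, by -0.23 (SE 0.16) in males and -0.03 (SE 0.34) in females, and in the male comparisons of CLP plus landiolol with sham (-0.20) and with CLP (0.02), none of them called.

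Of the receptors, Igf1r, the tyrosine kinase that binds IGF-1, was higher in males after CLP. Its representing probe (chromosome 1, chr1:122996687-122996746) read 9.74, 9.73, 9.69 and 9.53 in the 4 male sham arrays with a value, and 10.47, 10.09, 10.44, 10.47 and 10.18 in CLP. Every CLP array exceeded every one of those sham arrays, and the difference was 0.66 (SE 0.13, adjusted p = 0.00311), a 1.58-fold higher level, with 0.59 and 0.68 on the 2 slides. The remaining male sham array, replicate 2, had no value because its spot was marked as an outlier by the scanner software. In the deposited table of normalised values that array reads 10.88, where the other 4 sham arrays read from 9.58 to 9.81, and with it the difference was 0.45 (SE 0.20, adjusted p = 0.143) and was not called. The call was thus lost when that spot was kept.

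In the male CLP plus landiolol group Igf1r had a median of 10.35 and reached 10.58, and all 6 arrays were again above the 4 sham arrays. The difference from sham was 0.67 (SE 0.12, adjusted p = 0.00364), or 0.44 (adjusted p = 0.167) in the deposited table, and the difference from CLP was 0.01 (95% confidence interval -0.24 to 0.26). In females Igf1r read 9.74, 10.26, 9.64, 9.78 and 9.90 in sham and 10.06, 9.33, 9.91, 10.04 and 10.99 in CLP, overlapping groups that differed by 0.20 (SE 0.25, adjusted p = 0.699). The female CLP plus landiolol group ranged from 10.24 to 11.22 with a median of 10.55, and its difference from sham of 0.71 (SE 0.24, adjusted p = 0.0650) was not called. With a term for slide row that value was -0.036 (SE 0.39).

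The second Igf1r probe, printed above, differed by 0.97 (adjusted p = 0.0232) in CLP vs sham in males and by 0.55 (adjusted p = 0.0809) in females, neither called at 1%. It was called in females in CLP plus landiolol vs sham, at 1.03 (SE 0.18, adjusted p = 0.00166), where the 5 sham arrays lay between 7.59 and 7.89 and the 6 CLP plus landiolol arrays between 8.43 and 9.38. These are the female groups that row separates, and with a term for slide row the difference was 1.11 (SE 0.33, adjusted p = 0.229), of like size but not called. In males the same comparison gave 0.51 (adjusted p = 0.244), and CLP plus landiolol vs CLP gave -0.46 (adjusted p = 0.436), where the representing probe gave 0.01.

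Insr, the insulin receptor itself, was not called through its representing probe (chromosome 12, chr12:3090759-3090818), whose difference in male CLP vs sham was 0.46 (SE 0.20, adjusted p = 0.134). Its second probe read 6.93, 6.85, 6.80, 6.54 and 6.93 in male sham and 7.56, 7.15, 7.77, 8.05 and 7.60 in male CLP. No CLP array reached down to a sham array on that probe, and the difference of 0.82 (SE 0.14, adjusted p = 0.00122) was called, with 0.61 and 1.07 on the 2 slides. In the male CLP plus landiolol group it ranged from 7.27 to 7.61, differing from sham by 0.61 (SE 0.14, adjusted p = 0.0103), just outside the threshold. Female CLP vs sham gave -0.07 (SE 0.23) on this probe and 0.25 (SE 0.24) on the representing one.

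**Figure D3:**
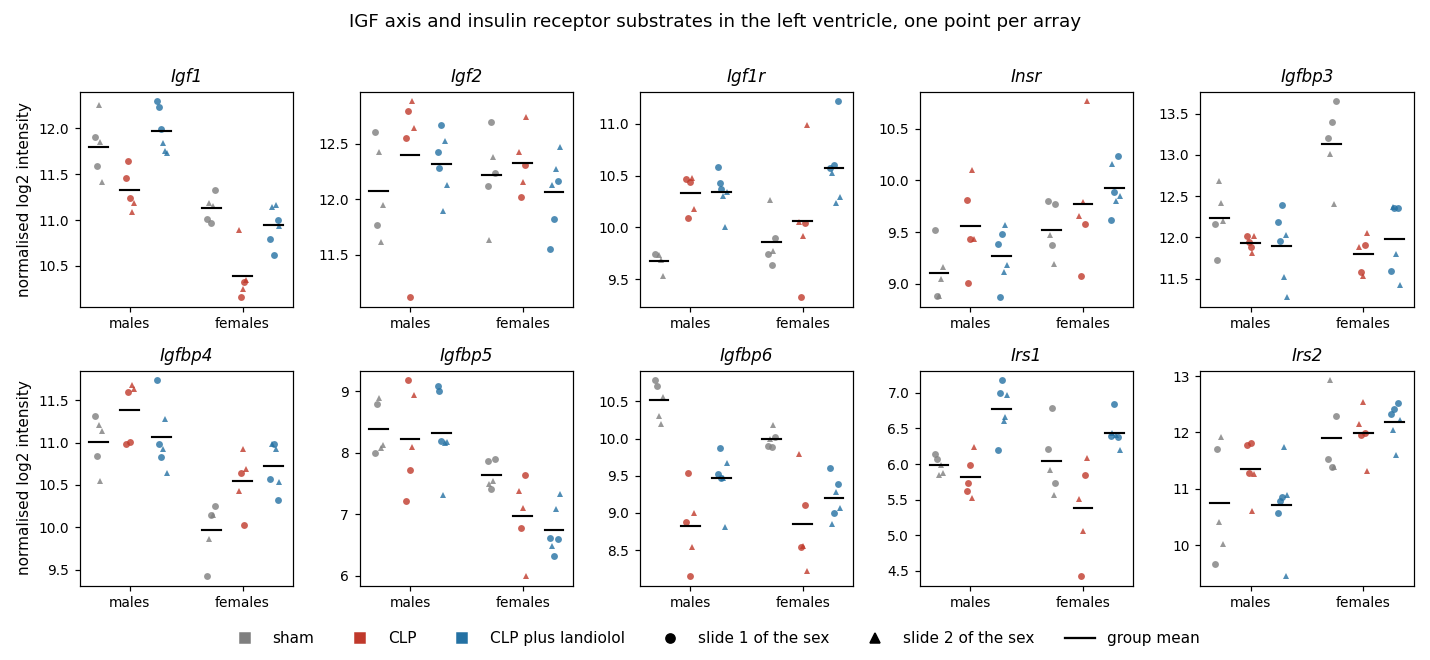
Log2 signal of the representing probe of each of the 10 genes on every array, in sham, CLP and CLP plus landiolol of both sexes, with the group mean as a line and the point shape showing the slide. Igfbp6 in CLP sits below sham in both sexes without overlap (male means 8.82 and 10.51), and Igfbp3 does so in females (11.79 and 13.13).

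Igfbp6, a binding protein that prefers IGF-2, fell after CLP in both sexes, and in males by more than any other member. The male sham arrays read 10.78, 10.71, 10.31, 10.20 and 10.56 and the male CLP arrays 8.88, 9.53, 8.16, 8.55 and 8.996. The groups were far apart, at means of 10.51 ± 0.25 (SD, n = 5) and 8.82 ± 0.51 (SD, n = 5), a difference of -1.69 (SE 0.24, adjusted p = 0.000206) or 3.22-fold, with -1.89 and -1.58 on the 2 slides. In females sham read 9.90, 9.99, 9.89, 10.18 and 10.02 and CLP 9.79, 8.55, 8.56, 9.11 and 8.22. The first female CLP array came close to the lowest sham array, yet none overlapped, and the difference was -1.15 (SE 0.24, adjusted p = 0.00622) or 2.22-fold. With a term for slide row the female difference was -1.03 (adjusted p = 0.0457) and was not called.

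With landiolol the Igfbp6 level lay between CLP and sham. It ranged from 8.81 to 9.88 with a median of 9.50 in males, still below every sham array, and the difference from sham was -1.04 (SE 0.23, adjusted p = 0.00796) or 2.06-fold. The male difference from CLP was 0.64 (SE 0.23, adjusted p = 0.184), with overlapping groups. In females it ranged from 8.85 to 9.60 with a median of 9.17, again without overlap with sham, but the difference of -0.80 (SE 0.23, adjusted p = 0.0308) was not called at 1% and was -0.50 (SE 0.41, adjusted p = 0.767) with a term for slide row. The difference from CLP was 0.35 (SE 0.23, adjusted p = 0.678).

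Markers of fibroblasts moved too, and the calls among them were in males only. In male CLP vs sham 3 of 5 were called, Col1a1 (-2.11, adjusted p = 0.00154) and Lum (-1.89, adjusted p = 0.00945) lower and Tcf21 (1.25, adjusted p = 0.00451) higher, with Dcn and Pdgfra not called. The mean over the 5 markers ranged from 10.87 to 11.68 in male sham, 10.56 to 11.19 in male CLP and 10.41 to 11.50 in male CLP plus landiolol. In females none of the 5 was called in CLP vs sham, and the mean ranged from 10.98 to 11.68 in sham and 9.90 to 11.58 in CLP. The female differences had the signs of the male ones, with Col1a1 at -1.61 (adjusted p = 0.0239), Lum at -1.72 (adjusted p = 0.0815) and Tcf21 at 0.70 (adjusted p = 0.109). All 5 markers were well above background in every group. Of 5 macrophage markers 2 in males (Cd68, Itgam) and 1 in females (Cd68) were called higher in CLP than sham. Itgam in females differed by 1.49 (adjusted p = 0.0910). Of 4 neutrophil markers 2 (S100a8, S100a9) passed the filter, and both in males and 1 in females (S100a8) were called higher in CLP. S100a9 in females differed by 1.95 (adjusted p = 0.0329). No endothelial, smooth muscle or pericyte marker was called in CLP vs sham. The part of any cell type in the results on Igfbp6 or the other members was not tested.

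Igfbp3, the main carrier of IGF-1 in blood, was lower in female CLP. The female sham arrays read 13.20, 13.01, 13.40, 12.41 and 13.65 and the CLP arrays 11.89, 11.58, 11.54, 11.90 and 12.05. All CLP arrays were below all sham arrays, and the difference was -1.34 (SE 0.24, adjusted p = 0.00248) or 2.53-fold, with -1.67 and -0.88 on the 2 slides. With landiolol the female level stayed low, ranging from 11.42 to 12.36 with a median of 12.08. That group did not overlap with sham and differed from it by -1.15 (SE 0.23, adjusted p = 0.00388) or 2.22-fold, and from CLP by 0.19 (SE 0.23, adjusted p = 0.866). Row and group coincide for this pair of female groups, and with a term for slide row the difference was -1.46 (adjusted p = 0.201) and was not called. In males the sham arrays read 12.16, 11.73, 12.69, 12.42 and 12.20 and the CLP arrays 12.02, 11.94, 11.88, 11.81 and 12.02. The CLP arrays lay within the spread of sham, and the difference of -0.30 (SE 0.20, adjusted p = 0.365) was not called.

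Igfbp4 and Igfbp5, which restrain IGF action locally and bind to matrix respectively, were not called in any comparison. In females the Igfbp4 difference was 0.58 (SE 0.20, adjusted p = 0.0870) in CLP vs sham and 0.75 (SE 0.19, adjusted p = 0.0172) in CLP plus landiolol vs sham, the latter without overlap, since sham ran from 9.43 to 10.26 and CLP plus landiolol from 10.32 to 10.99. Igfbp5 gave -0.67 (SE 0.27, adjusted p = 0.140) and -0.91 (SE 0.26, adjusted p = 0.0298) in the same comparisons, again without overlap in the second. With a term for slide row the CLP plus landiolol vs sham values were 1.06 (SE 0.34, adjusted p = 0.278) for Igfbp4 and -0.64 (SE 0.47, adjusted p = 0.720) for Igfbp5, and normexp background correction brought Igfbp5 to -0.57 there and to -0.41 in CLP vs sham. In males the Igfbp4 difference in CLP vs sham was 0.37 (SE 0.22) and that of Igfbp5 was -0.15 (SE 0.38). The second Igfbp5 probe differed in sign from the first in male CLP plus landiolol vs sham (0.32, SE 0.60, against -0.06, SE 0.37), with neither called.

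Irs1, the docking protein shared by both receptors, was higher with landiolol in males. It read 6.14, 6.06, 5.84, 5.99 and 5.87 in male sham and 5.62, 5.73, 5.99, 5.52 and 6.24 in male CLP, and ranged from 6.20 to 7.18 with a median of 6.82 in male CLP plus landiolol. The sham arrays lay within the range of the CLP arrays, and all but 1 of the CLP arrays lay below the whole CLP plus landiolol group. The difference between CLP plus landiolol and CLP was 0.95 (SE 0.17, adjusted p = 0.0119) or 1.93-fold, with 1.01 and 0.86 on the 2 slides. It was 0.50 (SE 0.10, adjusted p = 0.0161) after normexp background correction, still called, and was not called with only the CLP and CLP plus landiolol arrays in the fit (adjusted p = 0.0534). Against sham it was 0.79 (SE 0.17, adjusted p = 0.00781), without overlap, or 0.43 after normexp correction, whereas CLP vs sham gave -0.16 (SE 0.18, adjusted p = 0.618).

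In females Irs1 read 6.21, 5.91, 6.79, 5.57 and 5.73 in sham and 5.51, 4.43, 5.06, 5.84 and 6.09 in CLP, and ranged from 6.19 to 6.84 with a median of 6.40 with landiolol. No female CLP array reached the CLP plus landiolol group. The difference of 1.05 (SE 0.27, 95% confidence interval 0.48 to 1.63) had an adjusted p of 0.166 over all probes and was not called. It was 0.47 (SE 0.30, adjusted p = 0.978) with a term for slide row and 0.42 (SE 0.12, adjusted p = 0.236) after normexp correction. The probe was well above background on 4 of the 5 female CLP arrays and on all arrays of the other groups. Female CLP vs sham gave -0.66 (SE 0.28, adjusted p = 0.171), which was -1.04 (adjusted p = 0.0402) with the row term and -0.27 after normexp correction.

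Irs2, the second docking protein, varied widely between rats of 1 group. In males its mean was 10.74 ± 1.02 (SD, n = 5) in sham, 11.35 ± 0.49 (SD, n = 5) in CLP and 10.72 ± 0.74 (SD, n = 6) in CLP plus landiolol. In females the means were 11.90, 11.99 and 12.19. The difference of 0.60 between male CLP and sham had a confidence interval of -0.36 to 1.57, so a change of any size within that interval was not excluded.

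Calls in one sex and not in the other do not show that the sexes differ, and the difference between the female and the male effect was tested on all 32 arrays normalised together. For CLP vs sham no member passed at a false discovery rate of 5% in limma, and 0% of the 16811 genes did. Over all 26492 probes 995 had an unadjusted p under 0.05 in that test, and of the 10 members only Igfbp3 did, with a female minus male effect of -1.04 (SE 0.32, unadjusted p = 0.00287). The second Insr probe gave -0.89 (SE 0.28, unadjusted p = 0.00309). For CLP plus landiolol vs CLP again no member and 0% of genes passed, with 1307 probes and 0 of the 10 members at an unadjusted p under 0.05. There the second Igf1r probe gave 0.94 (SE 0.32, unadjusted p = 0.00707). For Irs1 and Igf1 the female minus male effects of CLP plus landiolol vs CLP were 0.10 (SE 0.33) and -0.08 (SE 0.21), with both sexes higher under landiolol. That of Irs1 was -0.50 (SE 0.33) with a term for slide row.

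The mean of the female and the male effect was also estimated, a choice made after seeing the data. In CLP vs sham, Igf1 (-0.61, SE 0.11, adjusted p = 0.000126), Igfbp3 (-0.82, SE 0.16, adjusted p = 0.000234) and Igfbp6 (-1.42, SE 0.17, adjusted p = 3.17e-07) were called, 3 of 10 members against 19% of all genes. In CLP plus landiolol vs CLP, Igf1 (0.60, SE 0.11, adjusted p = 0.00104) and Irs1 (0.999, SE 0.16, adjusted p = 0.000364) were called, 2 of 10 against 5.32%. Against sham, the CLP plus landiolol group had 4 of 10 called against 17.4%: Igf1r (0.69) and Irs1 (0.59) higher, Igfbp3 (-0.75) and Igfbp6 (-0.92) lower. With slide row as a further term Igf1 (0.62, adjusted p = 0.00676) and Irs1 (0.72, adjusted p = 0.0188) were still called in CLP plus landiolol vs CLP, and in CLP vs sham Irs1 (-0.62, adjusted p = 0.00464) joined the 3 others. None was then called in CLP plus landiolol vs sham, where Igfbp3 (-0.90, adjusted p = 0.0130) and Igfbp6 (-0.77, adjusted p = 0.0538) stayed near their former values and Igf1r (0.34, adjusted p = 0.316) and Irs1 (0.10, adjusted p = 0.868) did not. The share of all genes called with the row in this fit was not computed.

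The rest of the axis was read from lists of pathway genes, whose counts in CLP vs sham are to be read against the 8.89% of all genes called in males and 4.21% in females. For the CLP plus landiolol group the share of all genes called was 1.77% against CLP and 4.83% against sham in males, and 0.0987% and 6% in females. Outside the members, 13 genes of the IGF axis were listed and 7 were above the detection filter, among them Igf2r, which clears IGF-2, and Igfbp7. In male CLP vs sham 1 of the 7, Igfbp7, a low-affinity binding protein, was lower (-0.78, SE 0.17, adjusted p = 0.00568), and none of the 7 was called in the other male comparisons or in females. The widest difference of the list, that of Stc1, an inhibitor of the proteases that cleave binding proteins, was -1.87 (SE 0.48, adjusted p = 0.0232) in female CLP vs sham and did not pass at 1%. The median difference of the list in CLP vs sham was -0.09 in males and -0.38 in females, beside -0.01 and -0.02 over all genes.

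Of 6 genes of growth hormone receptor signalling, the route that drives Igf1 transcription, 3 were called in male CLP vs sham. Ghr, the receptor (-0.98, SE 0.14, adjusted p = 0.000299), and Stat5a, a transcription factor of the route (-0.64, SE 0.15, adjusted p = 0.00682), were lower. Jak2, the kinase bound to the receptor and to many cytokine receptors, was higher (2.03, SE 0.27, adjusted p = 0.000151). Stat5b, Socs2 and Cish had positive differences (0.49, 0.25 and 0.86) that were not called. In females 1 of 6 was called, Ghr, which was lower (-0.85, SE 0.17, adjusted p = 0.00549). No gene of this list was called in CLP plus landiolol vs CLP in either sex, where Ghr differed by 0.43 (adjusted p = 0.142) in males and 0.35 (adjusted p = 0.528) in females. Jak2 was also higher than sham in male CLP plus landiolol (1.43, adjusted p = 0.00257). The list's median in CLP vs sham was 0.37 in males and 0.30 in females.

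Among 20 adaptors and members of the PI3K-AKT route 19 were above the filter, all but Irs4. In male CLP vs sham 1 of 19 was called, the receptor inhibitor Grb14 (-0.70, SE 0.15, adjusted p = 0.00459), and in female CLP vs sham 1 of 19, the lipid phosphatase Inppl1 (-0.67, SE 0.14, adjusted p = 0.00796). In male CLP plus landiolol the adaptor Shc1 was lower than in CLP (-1.06, SE 0.25, adjusted p = 0.0435) and the kinase Akt2 lower than in sham (-0.53, SE 0.09, adjusted p = 0.00199). The medians of the list in CLP vs sham were -0.08 in males and -0.05 in females.

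Downstream of AKT all 15 listed genes were above the filter. Eif4ebp1, which holds back translation when not phosphorylated through mTOR, was higher in CLP than sham in males (1.94, SE 0.29, adjusted p = 0.000370) and females (1.82, SE 0.25, adjusted p = 0.000431). It was also higher in CLP plus landiolol than sham, by 1.39 in males (adjusted p = 0.00492) and 2.09 in females (adjusted p = 9.02e-05). Ddit4, a stress-induced inhibitor of mTOR, was higher in male CLP (1.65, SE 0.29, adjusted p = 0.00139) and in females differed by 0.63 (adjusted p = 0.467). The other 13 genes, including Foxo1, Foxo3, Mtor and Rps6kb1, were not called in any comparison. The list's median in CLP vs sham was 0.07 in both sexes.

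**Figure D4:**
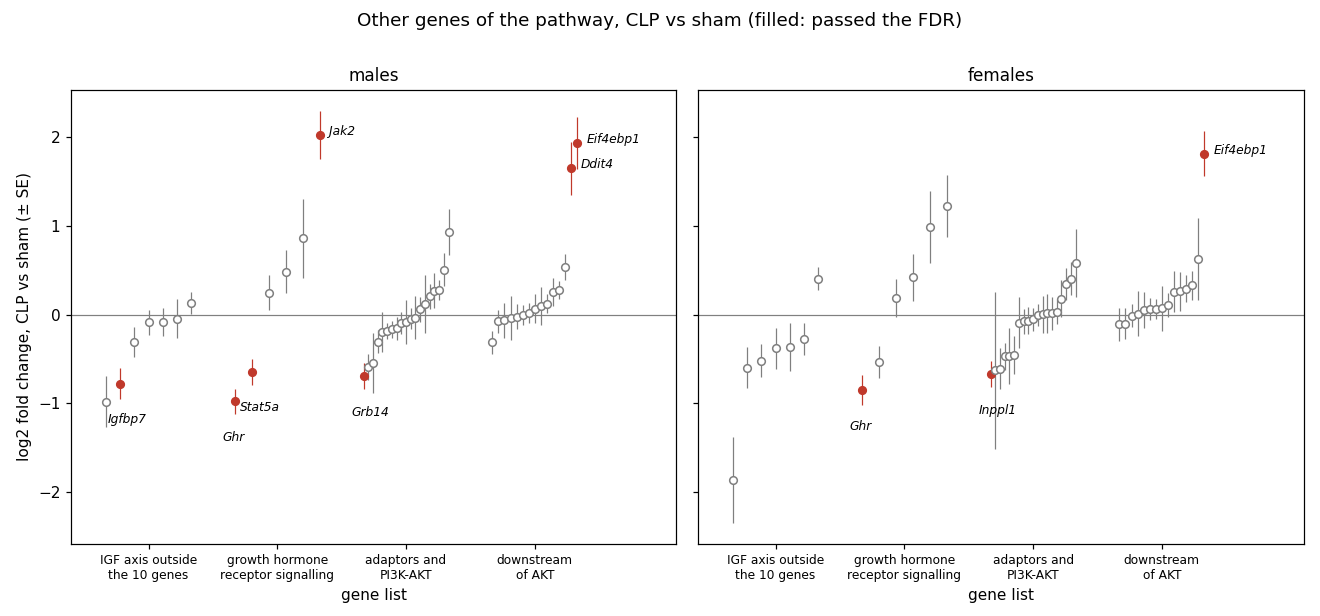
Log2 difference in CLP vs sham of each gene of the 4 pathway lists, males and females, with bars of 1 SE and called genes filled. Most genes of the lists lie near 0, with Jak2 (2.03) and Eif4ebp1 (1.94) in males and Eif4ebp1 (1.82) in females farthest above it.

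The genes whose profile over the arrays was most like that of a member called in CLP vs sham were found by Pearson's r across the 32 arrays, each centred on the mean of its sex, among 15870 genes. These arrays share the group differences, so the values describe likeness only. For Igfbp6 they were Aldh1a3 (0.93), Islr (0.92) and Ecm2 (0.92), and for Igf1 they were Vav2 (0.82), Kank4 (0.80) and Kcnn1 (0.79). Igfbp3 was closest to Pcp4l1 (0.81), Rai14 (0.79) and LOC102556053 (0.77), and Igf1r, over 31 arrays, to Tprg1l (0.84), LOC102556969 (0.84) and Smn1 (0.83).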

How the data were processed

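Left ventricular RNA from 32 rats was hybridised to 1-colour Agilent rat arrays of 62976 spots, 1 array per rat, on 4 slides. The authors scanned the arrays and extracted them with Agilent Feature Extraction 10.5, per the labels, and deposited for each array the processed signal, a background-subtracted intensity, with detection, saturation and outlier flags. They also deposited a table of log2 values normalised per sex, used here only as an alternative. Coordinates are those of the file headers (rn4), and 2 versions of the gene annotation occur among the files, which name 3 of the 19 member probes differently.

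From the intensities, control spots (leaving 58717 spots) and outlier-flagged spots were dropped, the latter leaving 213 probe values missing. Log2 was taken and the log2 values of replicate spots were averaged, and quantile normalisation was done over 16 arrays, separately for each sex. A probe was kept if 80% or more of the arrays of any 1 group had it well above background (25866 in males, 25395 in females). Between 34920 and 43155 spots were well above background per array. The number of arrays limits the precision.

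A model with the 3 groups was fitted within each sex in limma 3.58.1 (lmFit and eBayes, R 4.3.3), with Benjamini-Hochberg adjustment over all probes kept. The false discovery rates for CLP vs sham (1%) and CLP plus landiolol vs CLP (5%) follow the study, and 1% was chosen here for CLP plus landiolol vs sham. The study used SAM, a permutation method, on pairs of groups, and limma on all 3 groups replaces it here. The difference between the sexes (female effect minus male effect) was fitted on the 32 arrays normalised together. The brightest probe of a gene, by its mean on all 32 arrays, represents it. Other probes of a member are named where their sign or call differs, and pathway genes outside the members where they were called. The row and column of an array on its slide were read from the headers.

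The members and the gene lists were chosen with earlier results of these data known. The fit within a sex and that of the sex difference were tested on simulated data with a shift in the CLP group. The fits with a term for slide or row and the mean of both sexes were not tested so. The alternatives were another scaling (75th percentile), normexp background correction with an offset of 50, no filter on dim probes, only the groups compared in the fit, slide or row of the slide as a term, the deposited table, exchanged thresholds, any probe of a gene, and leaving out each array. The mean of the effects in both sexes, with and without the row, was added after seeing the data. The labels describe each array as a sample of its own, from 1 rat, and give no replicate numbers.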

Additional observations from a re-analysis of the deposited data

Results flagged for a closer look

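In groups of 4 to 6 arrays, each member probe was searched for a single array far from the rest by Dixon's test, and 9 of 114 groups had one, where chance gives about 1 in 20. For Igf1, the representing probe stood high on female CLP replicate 1, at 10.89 where the other 4 arrays ranged from 10.16 to 10.34. The departing Igf1 probe stood high on female CLP replicate 2 (12.24, others 9.33 to 10.15) and on female sham replicate 3 (10.53, others 9.89 to 10.07). The representing Igf1r probe was high on female CLP plus landiolol replicate 5 (11.22, others 10.24 to 10.60), and the second Igf1r probe was low on male sham replicate 1 (6.35, others 7.12 to 7.35).

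The representing Igf2 probe was low on male CLP replicate 3, at 11.12 where the others ranged from 12.55 to 12.88. The dimmest Igf2 probe, which carries the name of another locus in the male files, was high on female CLP replicate 2 (7.38, others 5.28 to 5.66) and low on male CLP plus landiolol replicate 2 (5.38, others 5.75 to 5.81). Irs1 was highest on female CLP plus landiolol replicate 3, at 6.84 against 6.19 to 6.43.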

How the results depend on the processing

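Of 800 values of single members under the alternatives, 759 kept their direction and their side of the threshold, 18 lost a call, 8 gained one and 15 changed sign, none of the last being a called value. Most of these values were not called in the main fit and so had no call to lose. Over 10 alternatives, Igfbp6 in male and Igfbp3 in female CLP vs sham kept their call in all 10. Igf1 and Igfbp6 in female CLP vs sham and Irs1 in male CLP plus landiolol vs sham kept it in 7 each, with the other called values between. Against sham, the exchanged threshold only loosened 1% to 5%, so no call could be lost under that alternative. The counts of members called in CLP vs sham in males (2) became 1 with only the groups compared in the fit, 1 with the deposited table and 4 with the mean of both sexes and a term for the row. In male CLP plus landiolol vs CLP (1) the count became 2 with normexp, with slide as a term, with the deposited table, with any probe and with the mean of both sexes, with or without the row, Igf1 being the added gene, and 0 with only the groups compared or a 1% threshold. In male CLP plus landiolol vs sham (3) it was 1 without the filter on dim probes and 0 with the mean of both sexes and the row. There Igf1r was also lost with the deposited table, Igfbp6 with the row (adjusted p = 0.0121), and Irs1 with slide as a term or only the groups compared. In female CLP vs sham (3) it was 1 with only the groups compared and 1 with the row, Igfbp3 in each case. In that comparison Igf1 was also lost with 75th percentile scaling and Igfbp6 without the filter on dim probes. In female CLP plus landiolol vs CLP (0) it was 2 with the mean of both sexes, with or without the row. That mean draws on the arrays of both sexes. Without the row it called 5.32% of all genes in this comparison, where the female fit called 0.0987% and the male fit 1.77%. In female CLP plus landiolol vs sham (1) the count was 2 with only the groups compared, 0 with the row, 4 at a 5% threshold, 2 with any probe, 4 with the mean of both sexes and 0 with that mean and the row. The mean of both sexes without the row called 17.4% of all genes there, where the female fit called 6%. For the other alternatives the share of all genes called was not computed, so their counts cannot be set against one. In female CLP plus landiolol vs sham the row turned the sign of Igf1r (-0.036), Insr (-0.27) and Irs1 (-0.57). In female CLP vs sham it turned that of Igf1r (-0.097), Insr (-0.020) and Igf2 (-0.012), and in female CLP plus landiolol vs CLP that of Insr (-0.25). None of these was called.

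Leaving out each array in turn, the counts ranged in males from 1 to 2 (CLP vs sham), 1 to 2 (CLP plus landiolol vs CLP) and 0 to 3 (CLP plus landiolol vs sham), in females from 1 to 3, 0 to 0 and 0 to 2, and for both sex differences from 0 to 0. Igfbp6 in male CLP vs sham, Igfbp3 in female CLP vs sham and Irs1 in male CLP plus landiolol vs CLP were called in 16 of 16 such fits. Igf1 in female CLP vs sham was called in 7 of 16, being lost without any 1 of the 5 sham arrays or of CLP replicates 2 to 5 (adjusted p up to 0.0210), and it was also lost with 75th percentile scaling (adjusted p = 0.0117). Igfbp6 in female CLP vs sham was called in 8 of 16, Igf1r in male CLP vs sham was lost without sham replicate 5 or CLP replicate 4 (adjusted p up to 0.0127), and Irs1 and Igfbp6 in male CLP plus landiolol vs sham were each called in 4 of 16. Igfbp3 in female CLP plus landiolol vs sham was lost without sham replicate 1, 3 or 5. The cause of these changes was not tested. No paired analysis was possible because the labels give no replicate numbers that would pair the arrays of different groups. The member probes were well above background on every array except Irs1 on 1 female CLP array and the second Igfbp5 probe on 1 female CLP plus landiolol array.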
